A study of Arabidopsis thaliana with 16 samples.

Results

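Wide H3K27me3 domains of Col-0 are the long, unbroken stretches of the Arabidopsis thaliana genome that lay under H3K27me3 peaks in both wild-type libraries. A base pair counted when a peak with a score over 30 covered it in both Col-0 H3K27me3 libraries, contiguous base pairs were joined, and runs of 5000 bp or more were kept. The members were thus chosen by the H3K27me3 peak lists of Col-0, and this gave 690 domains of 4933 contiguous regions in all. The 690 domains held 5.80 of the 13.9 Mb under both libraries (41.8%) and 4.87% of the nuclear genome. Since the H3K27me3 lists chose the domains, every H3K27me3 width and coverage below is a description without a test. H2Aub played no part in the choice.

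H3K27me3 is placed by Polycomb Repressive Complex 2 (PRC2), and the monoubiquitinated form of histone H2A (H2Aub) by the related complex PRC1. In plants, PRC2 keeps developmental regulators silent in tissues where they are not used, and its mark can spread over a gene or over several neighbours. H2Aub takes part in setting up this repression and can be removed again by ubiquitin proteases, of which UBP5 is one.

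The study profiled both marks by ChIP-seq in whole seedlings, collected 12 days after germination, of the mutant ubp5 and of the wild type Col-0. The ubp5 plants are a single deletion line made with CRISPR/Cas9 in the Col-0 background, in which part of the UBP5 gene was removed. There were 3 ubp5 and 3 Col-0 libraries for H2Aub, and 2 ubp5 and 2 Col-0 libraries for H3K27me3, each with its own list of broad peaks. A whole seedling mixes many cell types, so a domain marked in some cells cannot be told apart from one marked weakly in all of them. The lists give no reads per gene, so the deletion itself could not be checked here.

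The H2Aub libraries differed widely in how much was called. Peaks with a score over 30 covered 22.5, 10.9 and 27.8 Mb in ubp5 replicates 1, 2 and 3, and 11.6, 15.4 and 21.2 Mb in the Col-0 replicates. Replicate 2 of ubp5 covered the least of all 6 and replicate 3 of ubp5 the most, so the ubp5 group spans the Col-0 group on both sides. For H3K27me3 the covered length was 14.2 and 14.7 Mb in ubp5 and 14.6 and 16.6 Mb in Col-0. The uniquely mapped reads listed for the H2Aub libraries were also fewest in ubp5 replicate 2 and most in ubp5 replicate 3, and the part of depth in the results was not tested. The lengths say how much passed the caller rather than how much signal was there.

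Domain widths ran from 5002 to 57710 bp with a median of 7194.5 bp, and the middle of the distribution lay between 5905 and 9188 bp (quartiles). There were 149 domains of 10000 bp or more and 14 of 20000 bp or more. Just inside the threshold were domains of 5002, 5004, 5026, 5026 and 5030 bp, and one of those of 5026 bp lies over WOX5, a homeobox gene of the root stem cell niche. Just outside were regions of 4984, 4987, 4992, 4997 and 4997 bp. The threshold therefore cuts through a continuous range of widths. Chromosome 4 held 7.37 domains per Mb, chromosome 5 held 6.82, chromosome 2 held 6.30, chromosome 1 held 5.16 and chromosome 3 held 3.75.

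Some of the widest domains lay in repeated sequence, which bears on how their peaks can be read. The methods state that the authors kept uniquely mapped reads, while the alignment command listed with the paper allowed reads with several places. How reads were placed in repeated sequence cannot be told from the peak lists. More than 50% of the 50-base words were found more than once in the nuclear genome in 18 of the 690 domains, while the median domain had 0% of such words. Across all domains the share of repeated words was 5.17%, against 5.86% in the whole nuclear genome. The third widest domain, chr4:3966738-3993686 (TAIR10), holds none of the annotated genes and is 76.6% repeated words. Along 65.5% of its positions the sequence matched itself at a spacing of 178 bases in at least 80% of bases. Tandem repeats of this kind make up the centromeres of Arabidopsis. One such unit, on the plus strand, was followed by an exact copy and is shown because this domain had the largest loss of H2Aub described below (sequences are from RefSeq, TAIR10.1, which has the TAIR10 coordinates).
tandem unit, chr4:3970937-3971114: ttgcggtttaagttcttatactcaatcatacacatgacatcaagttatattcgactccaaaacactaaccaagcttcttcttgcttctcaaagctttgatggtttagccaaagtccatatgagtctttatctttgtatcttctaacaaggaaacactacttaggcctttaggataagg

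The widest domain, chr5:20552990-20610699 (57710 bp), had 80.4% repeated words. It held 20 protein-coding genes, among them NF-YC5, NF-YC6 and NF-YC7, subunits of a CCAAT-binding factor, SPL13A, a target of miR156 in the change from juvenile to adult growth, SAE1B of the SUMO pathway, and the hydroxysteroid dehydrogenases HSD4 and HSD1. The next domain, chr5:20611551-20628297, is 16747 bp wide and held SPL13B. The first 90 coding bases of SPL13A and SPL13B were the same in every position, so a read from these bases maps to both copies. The 2 stretches lie on the minus strand.
SPL13A, chr5:20583702-20583791: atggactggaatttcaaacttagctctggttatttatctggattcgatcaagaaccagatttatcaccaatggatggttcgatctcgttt
SPL13B, chr5:20617044-20617133: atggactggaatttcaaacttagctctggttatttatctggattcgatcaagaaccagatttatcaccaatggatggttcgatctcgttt

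The sixth widest domain, chr4:11077938-11100054 (22117 bp, 83.1% repeated words), was an array of 8 protein-coding genes, most of them annotated as cysteine-rich repeat secretory proteins or receptor-like kinases. AT4G20630, AT4G20640 and AT4G20670 began with the same 90 bases as AT4G20620. AT4G20680 had 29 of these bases in place in an ungapped comparison, and its differing bases are in capitals. Both stretches are on the plus strand.
AT4G20620, chr4:11077958-11078047: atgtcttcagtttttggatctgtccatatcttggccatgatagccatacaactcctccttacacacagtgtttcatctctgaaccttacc
AT4G20680, chr4:11095027-11095116: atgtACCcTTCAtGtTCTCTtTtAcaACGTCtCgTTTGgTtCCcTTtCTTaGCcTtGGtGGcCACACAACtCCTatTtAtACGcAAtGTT

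Of 33056 annotated genes, 1374 (4.16%) lay wholly inside a domain. Protein-coding genes accounted for 1071 of them, which is 3.902% of the 27444 protein-coding genes. The domains were mostly small neighbourhoods. No whole protein-coding gene was found in 143 domains, 1 in 262, and 2 or more in 285, of which 20 had 5 or more. A domain had 2.35 protein-coding gene starts per 10 kb, against 2.65 in regions of 2000 bp to under 5000 bp (mid-width regions, n = 1658) and 2.30 in the nuclear genome. Coding sequence made up 25.4% of the domain length, 32.1% of the mid-width regions and 28.3% of the genome.

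miRNA genes were the class with the largest share inside among classes of over 10 genes. Of 326 annotated miRNA genes, 37 (11.35%) lay wholly inside a domain, against 6.12% of lncRNA genes, 3.902% of protein-coding genes and none of 625 tRNA genes. All 37 matched a mature sequence in RefSeq (TAIR10.1), with 48 mature sequences and 38 different seeds. The individual miRNAs named here were chosen after their values were seen, for their known roles. They include miR156 and miR157, which hold back the adult phase through SPL genes, miR172, which acts on AP2-like floral repressors, miR160 of auxin response factors, miR319 of TCP genes in leaf growth, miR394 of the shoot meristem, and miR169 of NF-YA genes. The sequences are given as DNA, with bases 2 to 8 (the seed) in capitals, to show which of the miRNAs share a seed.
miR156f-5p, chr5:9136126-9136145, plus strand: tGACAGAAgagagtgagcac
miR157a-5p, chr1:24913276-24913296, minus strand: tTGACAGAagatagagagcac
miR172b-3p, chr5:1188211-1188231, minus strand: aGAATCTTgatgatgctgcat
miR172c, chr3:3599791-3599811, minus strand: aGAATCTTgatgatgctgcag
miR172d-3p, chr3:20587991-20588011, plus strand: aGAATCTTgatgatgctgcag
miR169i, chr3:9872106-9872126, minus strand: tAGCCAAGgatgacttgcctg
miR169b-5p, chr5:8527511-8527531, plus strand: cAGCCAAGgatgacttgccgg
miR160b, chr4:9888986-9889006, plus strand: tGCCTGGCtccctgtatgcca
miR319a, chr4:12353109-12353129, plus strand: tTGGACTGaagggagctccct
miR394a, chr1:7058207-7058226, plus strand: tTGGCATTctgtccacctcc

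The seed of miR169 recurred in 8 mature sequences inside domains, and that of miR172 in 3. A single domain of 13378 bp on chromosome 3, chr3:9871761-9885138, held MIR169i, MIR169j, MIR169k, MIR169l, MIR169m and MIR169n, whose mature sequences were the same as the one shown. H3K27me3 peaks covered 82.1% and 88.1% of that domain in the 2 ubp5 libraries, in 2 pieces of which the widest was 6356 bp. The ubp5 peaks reached none of the base pairs of MIR169i and MIR169j and the whole of MIR169k, MIR169l, MIR169m and MIR169n. MIR172b, MIR172c and MIR172d each lay in a domain of their own, 5582, 5322 and 6638 bp wide.

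H2Aub over the miRNA genes was sparse. No H2Aub peak touched 21 of the 37 in any of the 6 libraries, and 2 were touched in all 6. Among the 1071 protein-coding genes inside, 258 had none and 282 had one in all 6. miRNA genes are short, and that part in the contrast was not tested. Of the 3 miR172 genes, MIR172b was covered over its whole 95 bp in 3 of 3 ubp5 and 2 of 3 Col-0 libraries, and MIR172c and MIR172d had no H2Aub in any library. The domain of MIR172c was nevertheless 50.4%, 34.5% and 49.2% covered by H2Aub in ubp5 and 34.99%, 35.7% and 37.4% in Col-0. The domain of MIR172d had none at all. MIR156f, in a domain of 20783 bp, and MIR157a, in one of 10235 bp, had no H2Aub over the gene in any library.

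Among protein families, the share of members wholly inside a domain was read beside the 3.902% of all protein-coding genes, as a description. Cysteine-rich repeat proteins stood at 42.6%, with 20 of 47 genes, but these sat in 3 domains. F-box proteins, the substrate receptors of ubiquitin ligases, had 78 of 652 (12.0%) inside, spread over 48 domains. Peroxidases had 10 of 67 (14.9%), cytochrome P450 enzymes 22 of 218 (10.1%) and defensin-like peptides 10 of 133 (7.52%). Among transcription factors, bHLH proteins had 16 of 132 (12.1%), homeobox proteins 13 of 112 (11.6%), MYB proteins 15 of 149 (10.1%), WRKY proteins 7 of 72 (9.72%), AGAMOUS-like MADS proteins 10 of 120 (8.33%), ERF proteins 7 of 98 (7.14%) and NAC proteins 8 of 118 (6.78%). Receptor-like kinases were close to the background with 4 of 92 (4.35%), as were transposon-related genes with 3 of 66 (4.55%). Ribosomal proteins, used in all cells, were below it with 3 of 344 (0.872%).

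Neighbours inside a domain were often alike. Of 523 pairs of neighbouring protein-coding genes within the same domain, 194 (37.1%) had similar proteins, meaning a local alignment score of at least 0.3 of the smaller self score. The share was 33.7% of 95 pairs within the same mid-width region and 8.26% of 27439 neighbouring pairs over all chromosomes. Neighbours within a domain also lay on the same strand in 67.1% of pairs, against 60% within mid-width regions and 51.9% over all chromosomes. The similar pairs sat in 122 domains, of which 19 had 3 or more such pairs. The second widest domain, chr3:7714317-7765173 (50857 bp), had 12 of them, among genes annotated as cysteine-rich repeat secretory or receptor-like kinase proteins, from AT3G21900 onwards. Small peptide genes shared wide domains as well. CLE4, CLE5, CLE6 and CLE7, which encode signalling peptides of the CLAVATA3 family, shared 22133 bp on chromosome 2, and RALFL10, RALFL11, RALFL12 and RALFL13, of the rapid alkalinization factor family, shared 21422 bp on the same chromosome.

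The fourth widest, chr4:8742388-8768314 (25927 bp), held CSLB06, a cellulose synthase-like gene, PEN1, a triterpene synthase, and CYP705A1 and CYP705A2, which are cytochrome P450 genes. WRKY31, a transcription factor gene, and RHS14, named for its expression in root hairs, shared 21892 bp. LCR55 and LCR56, which encode defensin-like peptides, shared 21582 bp with AT3G20980 and AT3G21000, annotated as Gag-Pol-related retrotransposon proteins. MYB79, a MYB transcription factor gene, shared 21150 bp with MIR5026, MIR850 and MIR863.

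Of the gene lists described here, mostly of developmental regulators, 34 genes overlapped a domain and 33 of these were still touched by H3K27me3 in both ubp5 libraries, as were 96.9% of all genes inside domains. PLT3 was the exception, with 1543 bp under peaks in ubp5 replicate 1 and none in replicate 2. For floral MADS-box genes the count was 5 of 13 (AG, AP1, STK, CAL and FUL), and for WOX genes 8 of 15. For KNOX homeobox genes it was 4 of 8 (STM, KNAT1, KNAT2 and KNAT6), and KNAT3, KNAT4, KNAT5 and KNAT7 overlapped no domain. The root meristem genes PLT1, PLT2, BBM and PLT3 all overlapped one, 4 of 4. The counts were 5 of 19 for YUC and PIN genes of auxin synthesis and transport, 2 of 4 for boundary genes (CUC2 and LOB), 1 of 7 for seed regulators (LEC2) and 1 of 10 for flowering genes (FLC). For the thalianol and marneral clusters it was 4 of 6. None of the 10 matched Polycomb genes and none of 5 housekeeping genes overlapped a domain, and over all protein-coding genes the share was 5.65%.

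H2Aub varied widely among these regulators. Of the 34, 12 had H2Aub in all 6 libraries and 6 had none in any (AG, STK, CAL, STM, WOX9 and PIN8). AG, the class C gene of stamens and carpels, had H3K27me3 over all of its 5684 bp in every library, and its domain of 9782 bp held no H2Aub base pair in any of the 6. STM, needed to maintain the shoot meristem, had 0 bp of H2Aub in its gene, and its domain of 12924 bp had 0% in the 3 ubp5 libraries and 1.97%, 1.89% and 2.10% in the Col-0 libraries. WUS, which specifies the stem cells of that meristem, was the opposite. Its 1941 bp were under H2Aub over 1748, 499 and 1899 bp in ubp5 and 1770, 986 and 1815 bp in Col-0. The H2Aub ranges of the 2 genotypes overlapped for WUS. Among the 34 listed genes that overlap a domain, none was longer or shorter under H2Aub in all 3 ubp5 libraries than in any Col-0 library. Of all genes inside domains, 1.31% were longer and 1.82% shorter, and over all 33056 genes these shares were 11.9% and 3.14%. Nothing particular to the listed genes is read from this.

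**Figure D1:**
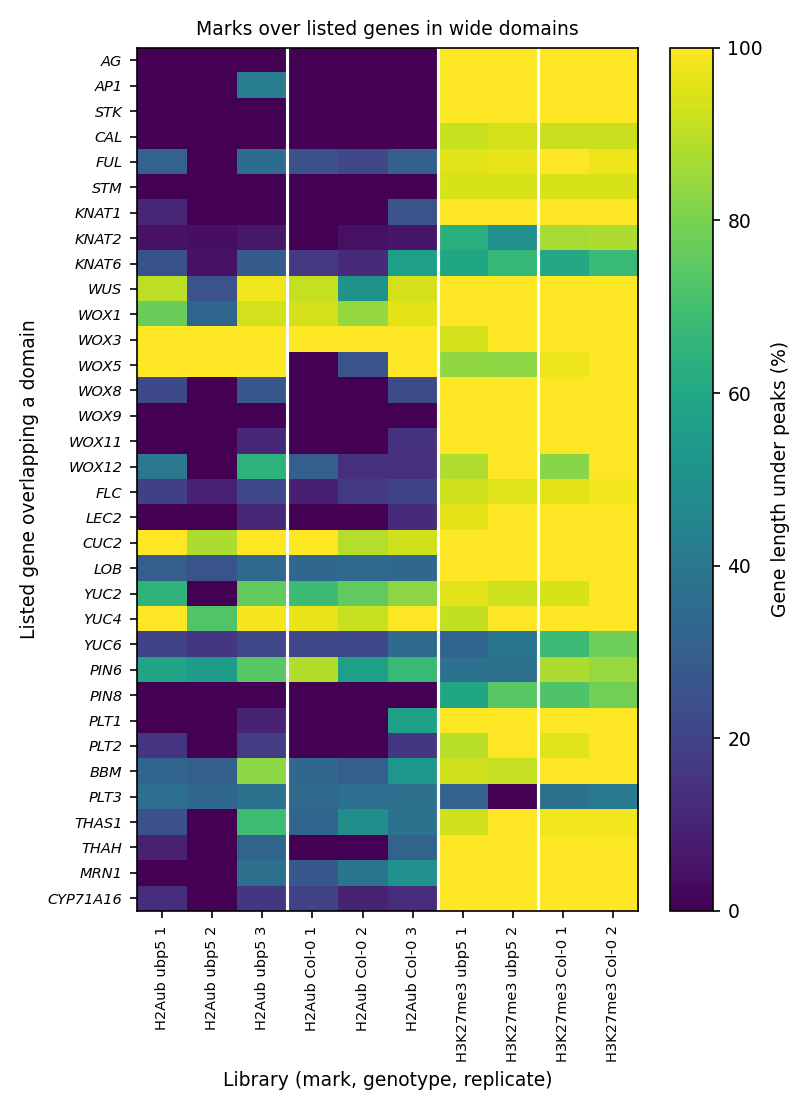
Percent of each gene's length under peaks (colour scale from 0 to 100%) for the 34 listed genes that overlap a wide domain (rows), in the 3 ubp5 and 3 Col-0 H2Aub libraries and then the 2 ubp5 and 2 Col-0 H3K27me3 libraries (columns). AG, STK, CAL, STM, WOX9 and PIN8 are dark in all 6 H2Aub columns, and WOX3 is fully covered in all 6.

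WOX3 and CUC2 were at the other end from AG. WOX3, a gene of lateral leaf margins, had all of its 1583 bp under H2Aub in the 6 libraries, inside a domain of 8106 bp. CUC2, a NAC gene of organ boundaries, had 2151, 1890 and 2151 of its 2151 bp under H2Aub in ubp5 and 2151, 1915 and 1996 bp in Col-0. YUC4, an auxin synthesis gene, had 2394, 1746 and 2364 of 2394 bp in ubp5 and 2318, 2190 and 2394 bp in Col-0. Full H3K27me3 coverage in Col-0 thus occurred with full, partial and no H2Aub coverage. The list domains differed in how much H3K27me3 they kept. That of PIN8, an auxin transporter gene, kept 24.5% and 29.1% of its length in the ubp5 libraries, that of FUL 51.2% and 52.9%, and that of PIN6 60.9% and 61.9%, while that of WOX9 kept all of it. FLC, the repressor of flowering that vernalization silences, lay in between with 1142, 567 and 1306 bp in ubp5 and 543, 1022 and 1221 bp in Col-0, of 6067 bp. WOX5 was covered over all 1161 bp in the 3 ubp5 libraries and over 0, 305 and 1161 bp in Col-0, so the groups met at the full length.

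The promoters of these genes were searched for a pair of motifs linked to PRC2 recruitment in Arabidopsis, the telobox AAACCCTA and the GAGA repeat GAGAGAGA, each on both strands and with overlapping matches counted. From 250 bases before to 50 after the gene start, the telobox was in 10.3% of the 1365 promoters that start in a domain, in 9.98% of the 1393 of mid-width regions and in 6.22% of all 27444. For the GAGA repeat the shares were 9.82%, 8.399% and 8.38%. Over the whole length, domains had 0.193 teloboxes per kb, against 0.209 in mid-width regions and 0.166 in the genome, and a GC content of 33.9%, against 35.1% and 36.0%. In the 250 bases before the start, 1 of the 31 list genes that start in a domain held a telobox (WUS) and 5 held a GAGA repeat (KNAT6, LEC2, YUC4, BBM and PLT3). The windows of WUS and BBM, a regulator of embryonic identity, are shown with the matches in capitals. Both genes are on the minus strand.
WUS, chr2:7810812-7811061: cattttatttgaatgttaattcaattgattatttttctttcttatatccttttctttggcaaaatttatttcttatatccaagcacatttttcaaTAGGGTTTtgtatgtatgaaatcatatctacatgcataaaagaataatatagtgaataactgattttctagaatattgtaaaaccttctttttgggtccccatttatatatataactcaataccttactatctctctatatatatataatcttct
BBM, chr5:5745749-5745998: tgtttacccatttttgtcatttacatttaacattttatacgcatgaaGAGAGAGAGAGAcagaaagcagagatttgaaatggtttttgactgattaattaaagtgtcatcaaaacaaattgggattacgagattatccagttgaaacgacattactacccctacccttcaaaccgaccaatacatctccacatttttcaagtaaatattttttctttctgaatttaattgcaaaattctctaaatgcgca

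The first test asked whether H2Aub over the domains differs between the genotypes. H2Aub peaks covered 28.1%, 12.3% and 38.3% of the domain length in ubp5 replicates 1, 2 and 3, and 21.9%, 22.1% and 30.1% in the Col-0 replicates. The ubp5 libraries thus spread around the Col-0 libraries, with means of 26.3% ± 13.1 and 24.7% ± 4.65 (SD, n = 3 each). The exact permutation test over libraries, two-sided on the logit scale, gave p = 1 (adjusted p = 1 over 5 comparisons of genotypes), where 3 against 3 libraries cannot go below 0.1. At protein-coding gene starts inside domains the shares were 28.8% ± 15.3 in ubp5 and 27.6% ± 5.70 in Col-0 (SD, n = 3 each; exact permutation p = 1, adjusted p = 1).

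This result depended on how much was called in each library. When the 6 H2Aub lists alone were reduced to their strongest peaks so that all covered the same length, on the same 690 domains, the logit difference was -0.61 in the domains (exact permutation p = 0.1, the smallest possible) and -0.64 at gene starts (exact permutation p = 0.1). At this setting the genotype difference of wide domains minus mid-width regions was -0.062 (logit, exact permutation p = 0.2). The mid-width regions thus fell nearly as much, so the fall is not read as particular to the domains. This setting was added after the data were seen. Another measure added after the data were seen was also lower in ubp5. The domains held 7.24%, 6.57% and 8.01% of the H2Aub length of the ubp5 libraries and 11.02%, 8.34% and 8.23% of that of the Col-0 libraries, so that every ubp5 library was below every Col-0 library (logit difference -0.25, exact permutation p = 0.1). The domains make up 4.87% of the genome, so in all 6 libraries they held more of the H2Aub length than their size alone.

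Single domains were then compared by groups that do not overlap. H2Aub covered more of the domain in all 3 ubp5 libraries than in any Col-0 library in 16 domains (2.32%), and less in 14 (2.03%). Over all 4557 Col-0 H3K27me3 regions of 500 bp or more the shares were 2.44% and 3.2%, so the domains were near this background in both directions. The counts rested on single libraries. Without ubp5 replicate 2 there were 231 domains with more (33.5%), against 23.5% of all regions, so that the domains stood above the background there. Without Col-0 replicate 3 there were 41 (5.94%), against 5.99%. Without ubp5 replicate 3 there were 91 with less (13.2%), against 11.5% of all regions. Without Col-0 replicate 1 there were 34 (4.93%), against 7.02%, and without Col-0 replicate 2 there were 30 (4.35%), against 5.44%. With the H2Aub lists at matched covered length, 126 domains had less and 12 had more. The share over all regions was not taken at this setting, so nothing particular to the domains is read from these counts.

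Gene by gene, few genes inside domains had H2Aub groups that did not overlap. Covered length was longer in all 3 ubp5 libraries than in any Col-0 library for 18 of the 1374 genes inside (1.31%), against 11.9% of all 33056 genes. It was shorter for 25 (1.82%), against 3.14%. Without ubp5 replicate 2 the first shares were 14.8% inside and 32.7% of all genes, and without Col-0 replicate 3 they were 3.86% and 16.6%. Without ubp5 replicate 3 the shares of shorter genes were 7.42% and 6.67%, without Col-0 replicate 1 they were 4.37% and 7.92%, and without Col-0 replicate 2 they were 3.42% and 4.31%. Counted as marked when a peak was present in at least 2 libraries, 700 genes inside (50.9%) were marked in ubp5 and 636 (46.3%) in Col-0. Over all genes these shares were 62.3% in ubp5 and 42.5% in Col-0. Of the 961 genes of mid-width regions, 58.7% were marked in ubp5 and 53.9% in Col-0, a rise like that inside domains. No test of the differences between these sets of genes was made.

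H2Aub was lower in the wide domains than in narrower regions. In each of the 6 libraries the domains had a smaller share of their length under H2Aub than the mid-width regions. The means were 25.5% ± 8.83 for domains and 37.2% ± 11.7 for mid-width regions (SD, n = 6 libraries, logit difference -0.57, exact paired permutation p = 0.031, adjusted p = 0.031 over 4 comparisons, the smallest possible). At protein-coding gene starts the means were 28.2% ± 10.4 and 36.8% ± 12.5, again lower in 6 of 6 libraries (logit difference -0.41, exact paired permutation p = 0.031, adjusted p = 0.031). This drop was not detectably different between genotypes, with logit differences of -0.59 ± 0.029 in ubp5 and -0.55 ± 0.071 in Col-0 (SD, n = 3 each; exact permutation p = 0.5, adjusted p = 1). In ubp5 the mean share was 30.8% in domains of 5000 to under 7500 bp, 27.8% from 7500 to under 10000 bp, 21.7% from 10000 to under 15000 bp and 17.9% from 15000 bp. In Col-0 the matching means were 28.1%, 24.5%, 20.6% and 22.4%. The classes held 373, 168, 112 and 37 domains, and the repeated domains were not left out of them.

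**Figure D2:**
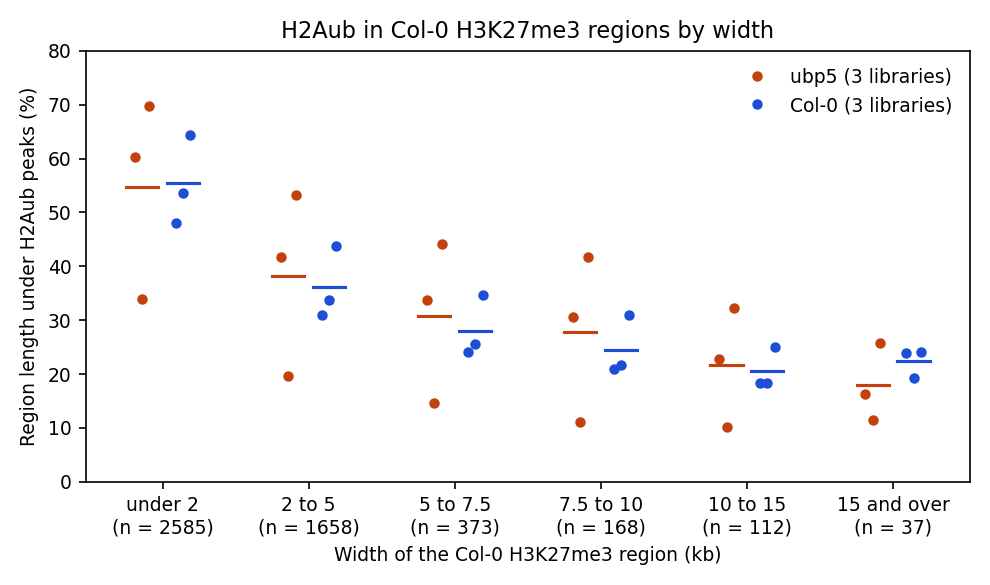
Percent of region length under H2Aub peaks (y axis) by width class of the Col-0 H3K27me3 region in kb (x axis, with the number of regions), for 3 ubp5 (left, orange) and 3 Col-0 libraries (right, blue), with bars at the group means. Both groups are highest in regions under 2 kb, with means of 54.6% in ubp5 and 55.4% in Col-0, and the 2 groups overlap in every class.

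Within the domains, H2Aub was lower in the middle than near the ends. H2Aub covered 24.2% ± 8.31 of the interior, 14.1% ± 6.64 of the 1000 bp just outside each end (outer zone) and 29.7% ± 10.6 of the outermost 1000 bp inside it (inner zone; SD, n = 6 libraries). The interior was below the inner zone in 6 of 6 libraries (logit difference -0.28, exact paired permutation p = 0.031, adjusted p = 0.031). The outer zone was below the inner zone in 6 of 6 as well (logit difference -0.99, exact paired permutation p = 0.031, adjusted p = 0.031). Coding sequence moved with these zones, at 24.5% of the interior, 12.3% of the outer zone and 28.0% of the inner zone. Protein-coding gene starts went the other way, at 2.42 per 10 kb in the interior, 2.92 in the outer zone and 2.12 in the inner zone. The part of either in the result was not tested. Between genotypes the inner zone had 30.7% ± 15.5 in ubp5 and 28.6% ± 6.01 in Col-0 (SD, n = 3 each; exact permutation p = 1), and the outer zone 16.1% ± 8.81 in ubp5 and 12.1% ± 4.57 in Col-0 (exact permutation p = 0.7). Both adjusted p-values of these genotype comparisons, from exact permutation tests, were 1.

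In bins of 100 bp the highest H2Aub share lay 450, 1250 and 550 bp inside the end in ubp5 replicates 1, 2 and 3, and 550, 450 and 750 bp inside in the Col-0 replicates. The maxima were 35.01%, 15.3% and 47.3% in ubp5 and 25.9%, 27.5% and 36.8% in Col-0. The ends themselves were mostly between genes, with 830 of 1380 ends (60.1%) there, against 35.9% of the genome. Coding sequence held 17.2% of the ends and 28.3% of the genome. Within 500 bp of the end of a protein-coding gene lay 29.9% of the ends, against 19.6% of the genome, and within 500 bp of a gene start 25.2%, against 21.4%.

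**Figure D3:**
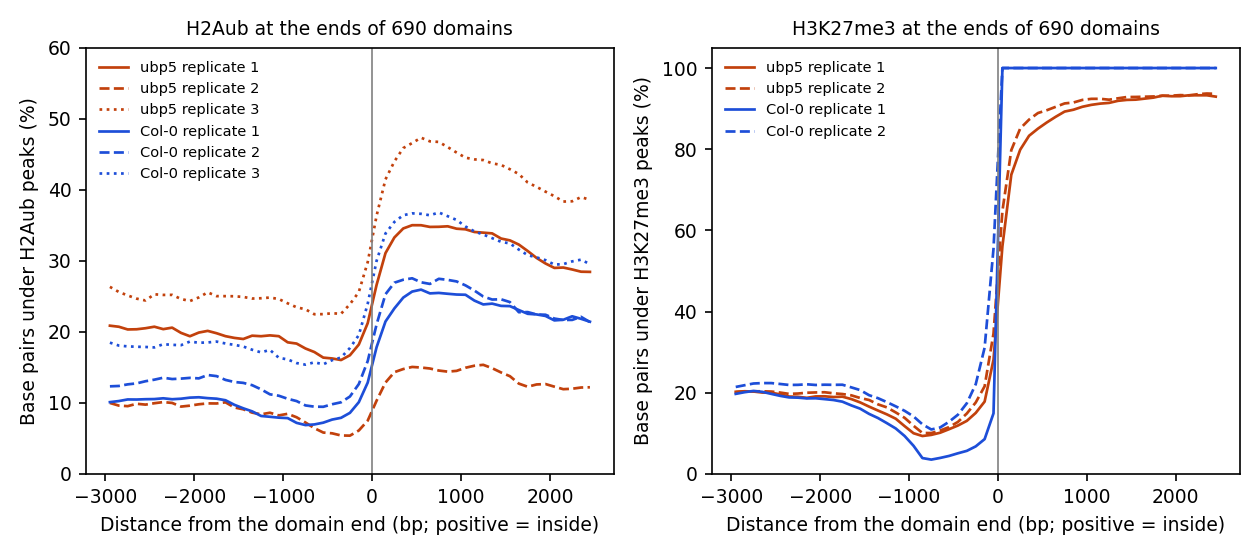
Percent of base pairs under H2Aub peaks (left panel) and under H3K27me3 peaks (right panel) in bins of 100 bp by distance from the 1380 domain ends (x axis, positive is inside), with a line for each ubp5 (orange) and Col-0 (blue) library. The 6 H2Aub lines rise at the end and fall again towards the inside, and the Col-0 H3K27me3 lines are at 100% inside because they chose the domains.

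The domains were largely kept in ubp5, at a narrower width. H3K27me3 peaks covered 90.8% and 92.2% of the domain length in the 2 ubp5 libraries and 88.8% in both at once. A region of 5000 bp or more under both ubp5 libraries overlapped 512 of the 690 domains (74.2%), 168 were split into several pieces, and 4 had no region. The widest overlapping ubp5 region had a median of 6265.5 bp, against a median domain width of 7194.5 bp in Col-0. Of 1372 ends of domains with a ubp5 region, 850 lay within 200 bp of the Col-0 end, 358 had moved inward by more and 164 outward by more. In total 497 domains (72.0%) were covered over less than their full length in both ubp5 libraries. Over all regions of 500 bp or more the share was 68.9%, and nothing is read from the pair, since the rule used these lists.

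Since the Col-0 lists chose the domains, the reverse choice was measured too. The 592 regions of 5000 bp or more in both ubp5 libraries were measured in Col-0 in the same way, again as a description. Of these, 512 (86.5%) were overlapped by a Col-0 region of 5000 bp or more, 49 were split and 9 had none. Their length was 89.7% covered in Col-0, and 337 met a wider region there, while 180 of the 690 Col-0 domains met a wider region in ubp5. The libraries of one genotype also differed. Wide regions of Col-0 replicate 1 were still wide in Col-0 replicate 2 in 94.0% of cases, and those of replicate 2 in replicate 1 in 81.7%. Wide regions of ubp5 replicate 1 were still wide in ubp5 replicate 2 in 89.1% of cases, and those of replicate 2 in replicate 1 in 85.0%. Across genotypes, wide regions of single Col-0 libraries were still wide in single ubp5 libraries in 68.7% to 76.5% of cases, and those of single ubp5 libraries in single Col-0 libraries in 81.4% to 88.2%.

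**Figure D4:**
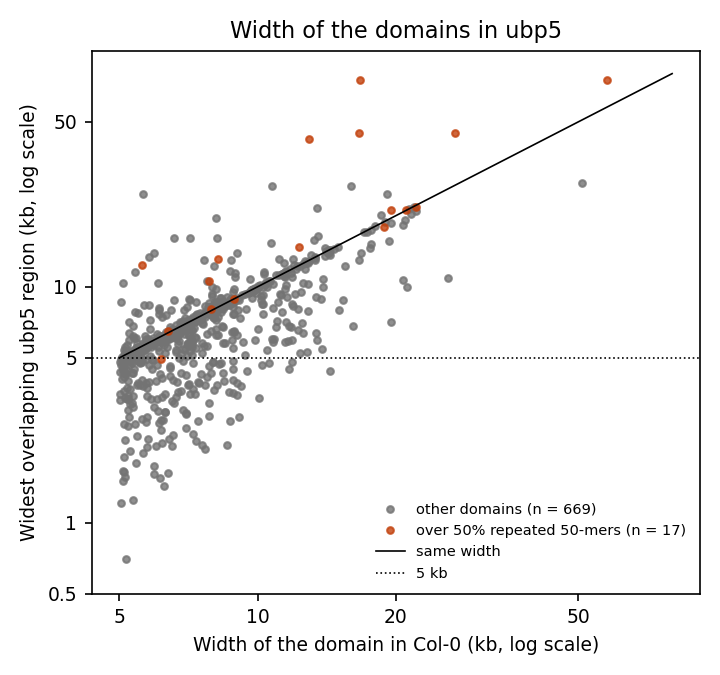
Width of the widest region under both ubp5 H3K27me3 libraries that overlaps a domain (y axis, kb, log scale) against the width of the domain in Col-0 (x axis, kb, log scale). The 686 domains with such a region are drawn, those with over 50% repeated 50-base words in orange and the 4 with no ubp5 region left out, and most points lie on or below the line of equal width.

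The 5 domains that kept the least H3K27me3 in ubp5 were between 5692 and 7990 bp wide. Their H3K27me3 peaks were weak already in Col-0, with a fold over background of 1.87 to 2.45 in replicate 1 and 1.97 to 2.96 in replicate 2. The medians of peaks on all domains were 3.19 and 4.46. The part of weak peaks in these losses was not tested. Those with no base pair under both ubp5 libraries were chr2:6207851-6215840 over most of LURP1, a gene induced by pathogens, with 9.57% and 0% in the ubp5 libraries, chr5:2077951-2084552 with the peroxidase gene AT5G06730 and most of PA2, with 0% and 5.42%, chr2:5917215-5923179 with AT2G14070, annotated as similar to a wound-responsive protein, with 45.7% and 0%, and chr4:11061653-11067344, with 41.5% and 0%. The last consists wholly of repeated words and lies near the cysteine-rich array of chromosome 4 and holds genes of the same kind. The fifth, chr4:5236401-5242658 with the transporter gene UMAMIT20, kept 58.3% and 22.9%. H2Aub at the LURP1 domain was 31.8%, 28.1% and 45.3% in ubp5 and 17.3%, 11.3% and 38.1% in Col-0. At the PA2 domain it was 0%, 0% and 56.2% in ubp5 and 20.99%, 20.7% and 40.8% in Col-0. At the AT2G14070 domain it was 20.3%, 0% and 34.6% in ubp5 and 28.3%, 24.96% and 30.2% in Col-0. The H2Aub groups overlapped in each of these domains. At the UMAMIT20 domain and at chr4:11061653-11067344, H2Aub was 0% in all 6 libraries.

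The 5 domains that ubp5 peaks extended most beyond their ends lay in much longer regions of ubp5. In ubp5 the SPL13A and SPL13B domains were part of 1 region of 75024 bp, and the satellite domain chr4:3966738-3993686 and its neighbour chr4:3994978-4011593 of 1 region of 44992 bp. Of the Col-0 libraries, replicate 1 also had a single peak across both satellite domains, and replicate 2 had a single peak across both SPL13 domains. The domain chr2:48848-61762 with AT2G01035 and AT2G01045, whose proteins scored as identical in the alignment, was part of a ubp5 region of 42434 bp, and the peak of Col-0 replicate 1 there ran from position 15158 to 63546. The last, chr4:8942413-8948034, was part of one of 24734 bp, the peak of Col-0 replicate 2 there ran from position 8922285 to 8948063, and 1.28% of its words were repeated. In each of these cases 1 of the Col-0 libraries thus already had a single peak well past the domain, and the other did not. The share was 100% in the SPL13B domain, 76.6% and 80.1% in the satellite domains and 82.6% in that on chromosome 2, and the part of repeats in the joining was not tested.

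The 5 largest gains of H2Aub among domains whose groups do not overlap are given next. The domain chr4:1340185-1346334, with MIR826a, MIR826b and most of AOP3, a gene of glucosinolate side chains, had 100%, 79.6% and 100% under H2Aub in ubp5 and 49.4%, 48.4% and 58.9% in Col-0. ZFP5, a zinc finger gene of trichome development, lay in chr1:3447184-3452368, with 60%, 50.5% and 72.7% in ubp5 and 22.2%, 26.8% and 32.1% in Col-0. At CYP79B2, an enzyme gene that makes indole-3-acetaldoxime from tryptophan, the domain chr4:18519952-18526937 had 82.5%, 82.0% and 100% in ubp5 and 56.2%, 56.0% and 57.5% in Col-0, and kept 58.4% and 64.2% of its H3K27me3 length in ubp5. The domain chr2:19503846-19512532, with AT2G47530 and AT2G47540, of the pollen Ole e 1 family, had 100%, 86.6% and 100% in ubp5 and 64.9%, 65.5% and 75.7% in Col-0. The F-box domain chr1:5789965-5798377, with AT1G16940 and AT1G16945, had 26.4%, 14.8% and 40.2% in ubp5 and 0% in the 3 Col-0 libraries, and its H3K27me3 was complete in ubp5. These domains, other than that of CYP79B2, kept 93.4% to 100% of their length under H3K27me3 in each ubp5 library.

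Among domains whose groups do not overlap the largest loss was at the satellite domain chr4:3966738-3993686. H2Aub covered 0% of it in the 3 ubp5 libraries and 100%, 72.4% and 72.9% in the Col-0 libraries, while H3K27me3 covered all of it in both ubp5 libraries. In each Col-0 library this was a single H2Aub peak with a fold over background of 3.40, 2.40 and 1.95. Its neighbour chr4:3994978-4011593, 80.1% repeated words, had 0%, 62.6% and 0% in ubp5 and 99.3%, 73.7% and 60.4% in Col-0, so there the groups overlapped. At the domain of GH9B10, a glycosyl hydrolase gene, chr2:18386533-18393146, the shares were 38.4%, 17.0% and 39.7% in ubp5 and 53.1%, 55.7% and 56.8% in Col-0. At chr5:19194929-19200409, with an end of ADR1-L3 and the F-box gene AT5G47300, they were 28.97%, 29.4% and 45.5% in ubp5 and 55.3%, 57.9% and 59.4% in Col-0. GATA13, a transcription factor gene, lay in chr2:12101242-12106442, with 12.2%, 0% and 11.9% in ubp5 and 48.9%, 20.4% and 14.1% in Col-0. The domain chr1:25823134-25828216 over most of PPC4, a phosphoenolpyruvate carboxylase gene, had 7.14%, 0% and 10.1% in ubp5 and 10.2%, 29.2% and 36.4% in Col-0. Its groups were barely apart, with 515 bp in ubp5 replicate 3 and 519 bp in Col-0 replicate 1.

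In the 10 widest domains the H2Aub groups of the other 9 overlapped. The SPL13A domain had 59.4%, 61.4% and 56.1% in ubp5 and 35.2%, 63.3% and 57.6% in Col-0. The cysteine-rich array on chromosome 4 had 24.3%, 23.9% and 27.2% in ubp5 and 77.6%, 24.7% and 24.5% in Col-0, where replicate 1 alone stood high. The cysteine-rich array on chromosome 3 had 8.04%, 1.32% and 27.7% in ubp5 and 6.57%, 3.69% and 15.8% in Col-0, and H3K27me3 covered 98.4% and 98.5% of it in ubp5 in 2 pieces. At CLE4 to CLE7 the shares were 5.46%, 6.41% and 26.9% in ubp5 and 2.53%, 7.22% and 9.08% in Col-0. The MYB79 domain kept 76.9% and 92.6% of its H3K27me3 length in ubp5, in 4 pieces, and its H2Aub was 3.04%, 0% and 16.7% in ubp5 and 17.6%, 11.3% and 31.8% in Col-0.

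**Figure D5:**
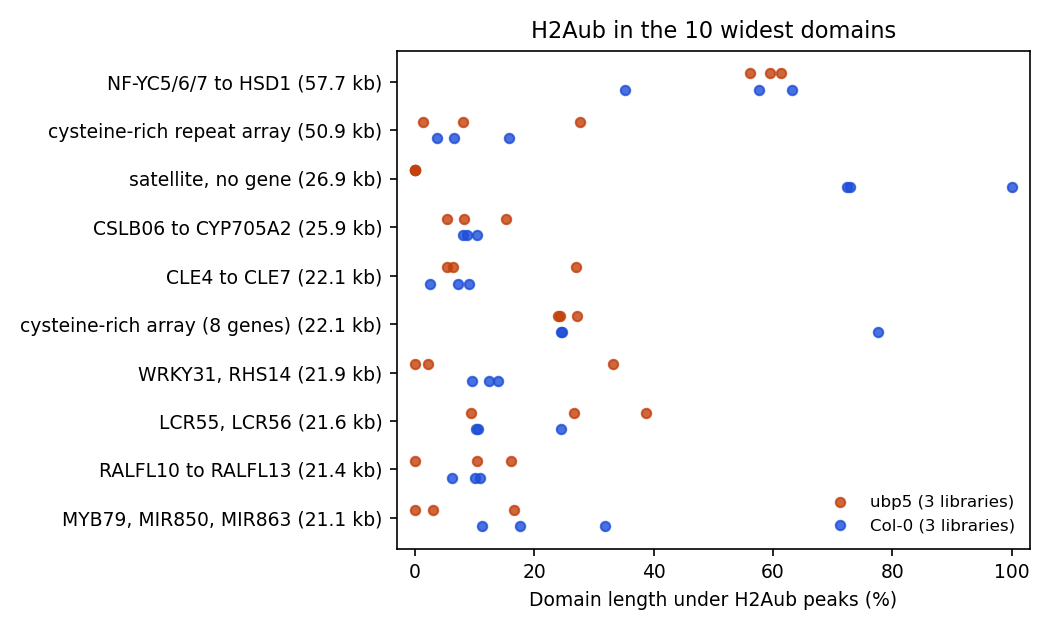
Percent of domain length under H2Aub peaks (x axis) in the 10 widest domains (rows, widest at the top), with a point for each of 3 ubp5 (upper, orange) and 3 Col-0 libraries (lower, blue). The ubp5 points of the satellite domain are at 0% and the Col-0 points at 72.4% or more, and the groups overlap in the other 9 domains.

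Across all 690 domains, 330 had some H2Aub in all 6 libraries and 32 had none in any. One domain, chr5:8162085-8168177 with SQP2, a squalene monooxygenase gene, was at least 90% covered in all 6. Its shares were 93.5%, 93.1% and 94.2% in ubp5 and 93.9%, 93.8% and 93.8% in Col-0, and H3K27me3 covered 99.8% and 100% of it in ubp5.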

How the data were processed

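H2Aub and H3K27me3 were profiled by ChIP-seq in 10 libraries of Arabidopsis seedlings, and 6 input samples were not analysed here. Per the labels and the methods, the authors aligned reads with STAR 2.7.8a to TAIR10, marked duplicates with Picard, kept uniquely mapped reads outside the organelles and called broad peaks in each library with MACS3 3.0.0. The deposited lists give for each peak a score, a fold over background (ratio), and −log10 of the p-value and q-value, all from the authors' caller. The score was 10 times the −log10 q in over 99.9% of peaks. The H2Aub lists hold no peak below a −log10 q of 3, whereas the H3K27me3 lists reach 1.01. Read totals are listed for each library with the methods but the reads were not used here, so no counting interval is given.

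Peaks with a score over 30 were kept. Shares of length under H2Aub were compared on the logit scale with two-sided exact permutation tests over libraries, genotypes by exchange of labels and region classes by sign changes within libraries, with Benjamini-Hochberg adjustment within each family. The methods call the replicates biological without saying whether they were separate plant pools, and p-values measure the spread between these libraries. Regions named are the 10 widest, the 5 largest gains and losses of H2Aub among domains whose groups do not overlap, the 5 least kept and the 5 most extended in ubp5, and those next to the width limit. Genes named are those in the 10 widest domains and list genes that overlap a domain. Other genes and miRNAs were chosen after their values were seen. Of the list symbols, 1 (BMI1B) had no match. Members and lists were chosen with earlier results of these data known. Neighbouring proteins were aligned with gap penalties of 11 and 1.

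Alternatives were all peaks, a score over 60, width limits of 4000 and 7500 bp, gaps of 200 bp joined, zones of 500 bp, mid-width regions from 1000 bp, genes with at least 50% of their length in the domain, log2 in place of logit, matched covered length, a replicate block and each library left out. Further alternatives were added after the data were seen, leaving out domains with over 50% repeated 50-base words, the share of each library's H2Aub length in domains, and matched covered length of the H2Aub lists alone. The scripts were tested on simulated data and recovered 5 of 5 planted quantities. Python 3.11.15, NumPy 2.4.6, pandas 2.3.3, SciPy 1.17.1, Biopython 1.88 and Matplotlib 3.10.9 were used, with RefSeq TAIR10.1 annotation.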

Additional observations from a re-analysis of the deposited data

How the results depend on the processing

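Of 232 values of 15 results recomputed under the alternatives, 168 kept their direction and call, or stayed within the limits set for counts. This number is no measure of stability. For genotype differences the call could not change, since their smallest exact p is 0.1, so only the direction was compared. The change to -0.61 in the domains at matched covered length counts as kept. Joining gaps of 200 bp altered no value, and the replicate block leaves each difference as it was. The genotype difference of H2Aub in the domains (logit) turned to 0.0082 with all deposited peaks, 0.020 at a width limit of 4000 bp and 0.044 without the domains of repeated sequence (an alternative added after the data were seen), where the genotype difference of the drop between wide domains and mid-width regions was 0.0021. That in the inner zone turned to -0.087 at a score over 60, -0.52 at matched covered length (of both marks, or of the H2Aub lists alone, a setting added after the data were seen) and -0.019 at a width limit of 7500 bp, and that in the outer zone to -0.069 with both marks matched and -0.088 with the H2Aub lists alone matched. Matching both marks also changed the set to 674 domains. None of these passed the exact permutation test. The share of domain length under H3K27me3 in ubp5 was 88.99% at a score over 60, 90.5% at 4000 bp and 92.85% at 7500 bp. Domains with more H2Aub in every ubp5 library numbered 8 at a score over 60, 25 at 4000 bp and 4 at 7500 bp, and those with less numbered 126 under either matched setting and 3 at 7500 bp. No share over all regions was taken beside the counts under these settings. At 7500 bp there were 317 domains with 891 genes inside, of which 281 were still wide in ubp5. The causes of these shifts were not tested, apart from the counts at other width limits, which hold other domains.

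With 1 library left out at a time, the genotype differences (logit) ran from -0.33 to 0.42 in the domains, from -0.40 to 0.43 at gene starts, from -0.32 to 0.47 in the inner zone, from -0.069 to 0.68 in the outer zone, and from -0.066 to 0.0065 for the drop between wide and mid-width regions. The differences between region classes kept their direction, from -0.60 to -0.56 for wide minus mid-width, from -0.48 to -0.41 at gene starts, from -0.30 to -0.23 for interior minus inner zone and from -1.02 to -0.93 for outer minus inner zone. With 5 H2Aub libraries the smallest exact p is 0.063, so these could not pass. Domains with more H2Aub ran from 16 to 231 and those with less from 14 to 91. Domains numbered 749 to 847 and genes inside 1496 to 1777 with 1 Col-0 H3K27me3 library, domains still wide in ubp5 ran from 520 to 560, and the H3K27me3 share in ubp5 from 87.01% to 92.15%.

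The same-number correlations of the domains' deviations from their group means were -0.09, 0.01 and 0.42. Those between different numbers ran from -0.36 to 0.32. These correlations cannot settle whether the replicate numbers pair the libraries, since deviations within a group depend on each other. With the replicate block the genotype differences were -0.00 in the domains, -0.03 at gene starts, 0.02 in the inner zone, 0.25 in the outer zone and -0.04 for the drop with width, and exact permutation with 3 pairs cannot go below p = 0.25. Read depth, the uncertain placing of reads in repeated sequence and the prior filter of the H2Aub lists limit all of these values. With 3 libraries a genotype no comparison of genotypes could pass 0.05, since its smallest exact p is 0.1.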
